A study of Rattus norvegicus with 93 samples.

Results

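Chrna3, Chrna5 and Chrnb4 are 3 adjacent genes that encode the alpha-3, alpha-5 and beta-4 subunits of the neuronal nicotinic acetylcholine receptor. They were taken by symbol from an expression table of 38354 genes, and all 3 were present and passed the filter on low values used below. The table covered 92 RNA-seq libraries of polyA RNA from outbred rats, all taken from the rostromedial tegmental nucleus (RMTg), in a project on the genetics of avoidance learning in addiction. The RMTg is a cluster of inhibitory neurons in the brainstem behind the ventral tegmental area. The labels gave no treatment, genotype, sex, age or behaviour, so all rats formed 1 group, and the only subdivision was a run of identifiers that fell into series, here lettered. The description used the 49 libraries in which Nif3l1 took under 20% of the total and LOC120093067 with Zfp532 took under 10%, and these fell into series B, C, D, E and F with 7, 16, 12, 7 and 7 libraries. Each label names 1 library and 1 identifier, and nothing in the labels says how the tissue was dissected.

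Nicotinic receptors are pentameric cation channels opened by acetylcholine and by nicotine. The alpha-3 and beta-4 subunits together form the classical receptor of autonomic ganglia, and in the brain they are concentrated in the pathway from the medial habenula to the interpeduncular nucleus. The alpha-5 subunit is an accessory subunit that forms no agonist site by itself and that changes the conductance, calcium entry and desensitisation of receptors built from other alpha and beta subunits. It is present in the same habenular pathway and in midbrain dopamine neurons, where it joins alpha-4 and beta-2. Variation in the human counterpart of the cluster is associated with smoking, and in rodents the alpha-5 subunit of the habenular pathway limits nicotine intake.

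In the RefSeq annotation of GRCr8 the cluster lies on chromosome 8. Chrna5 runs forward from 64265879 to 64294233. Chrna3 follows on the reverse strand from 64297755 to 64311251, so that both genes end facing each other, with 3521 bases between them. Chrnb4, also on the reverse strand, runs from 64312644 to 64333319 and ends 1392 bases upstream of the start of Chrna3. None of the gene bodies overlap. Promoter windows of 300 bases, from 250 before to 50 after a reference start site, were found for all 3 genes. For Chrna5 and Chrna3 that site is the gene start given above, and for Chrnb4 it is 64333109, 210 bases inside the gene. The windows are shown because the 3 neighbours have separate starts and varied differently from rat to rat. Each window is written 5′ to 3′ on the strand of its gene, with capitals marking GGGCGG or its reverse complement CCGCCC, the core of the GC box read by Sp1-type factors. The windows are chr8:64265629-64265928 on the forward strand for Chrna5, and chr8:64311202-64311501 and chr8:64333060-64333359 on the reverse strand for Chrna3 and Chrnb4.
Chrna5: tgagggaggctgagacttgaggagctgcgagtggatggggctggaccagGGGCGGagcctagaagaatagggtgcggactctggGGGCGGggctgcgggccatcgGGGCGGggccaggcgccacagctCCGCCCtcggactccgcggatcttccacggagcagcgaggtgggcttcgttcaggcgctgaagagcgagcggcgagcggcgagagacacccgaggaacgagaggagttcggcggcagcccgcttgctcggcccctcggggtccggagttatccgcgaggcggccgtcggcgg
Chrna3: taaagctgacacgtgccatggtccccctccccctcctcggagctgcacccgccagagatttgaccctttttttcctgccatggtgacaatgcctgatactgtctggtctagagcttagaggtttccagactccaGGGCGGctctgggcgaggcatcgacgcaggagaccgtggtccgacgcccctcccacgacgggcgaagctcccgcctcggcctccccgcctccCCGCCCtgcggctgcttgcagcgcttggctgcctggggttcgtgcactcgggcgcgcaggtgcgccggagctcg
Chrnb4: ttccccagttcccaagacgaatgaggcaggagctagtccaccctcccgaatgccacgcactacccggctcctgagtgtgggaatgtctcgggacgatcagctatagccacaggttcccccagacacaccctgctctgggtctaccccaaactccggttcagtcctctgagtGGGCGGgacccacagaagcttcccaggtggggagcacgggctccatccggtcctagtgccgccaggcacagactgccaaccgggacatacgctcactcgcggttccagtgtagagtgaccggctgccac

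The GC box core occurred 4 times in the Chrna5 window, 2 times in the Chrna3 window and 1 time in the Chrnb4 window. Of 33469 rat promoter windows of the same length 33.1% held at least 1 match on either strand, 16.99% held at least 2 and 4.64% held at least 4. The GC content was 71.3% for Chrna5, 66.7% for Chrna3 and 62.3% for Chrnb4, against a median of 51.7% over all windows. The E box letters CANNTG, read by basic helix-loop-helix factors, were found 2 times in the Chrna3 window, 1 time in the Chrnb4 window and not in the Chrna5 window, and 72.1% of all windows held them. The letters ACAAAG, a core read by Sox factors, were in none of the 3 windows and in 18.8% of all windows. The position of Chrnb4 in the deposited table, which is also its gene start above, lies 210 bases upstream of the start used for its window. For Chrna3 and Chrna5 both positions coincide. The Chrnb4 window thus lies mostly inside the annotated gene, and its motif counts and GC content are for that stretch.

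The 49 libraries held 9.55 to 50.2 M estimated counts (M, 1000000), with a median of 19.2 M, and 23690 to 28273 genes above 0. The other 43 libraries were dominated by these features. Markers of the expected inhibitory neurons were present in every library, with the summed level of 10 such genes between 714 and 1195 counts per 1000000 (CPM). Markers of dopamine neurons, which lie next to the RMTg, were more uneven, with 9 genes summing to 252 to 1823 CPM and a median of 505. Markers of the cell groups in which Chrna3 and Chrnb4 are best known were mixed. Of 4 medial habenula genes, Pou4f1 and Gpr151 averaged 0.273 and 0.151 CPM, while Tac1, a neuropeptide gene of many brain regions, and Nwd2 averaged 28.1 and 7.03 CPM with no library at 0. The 4 summed to 16.8 to 56.5 CPM. Of 3 cholinergic genes, Chat and Slc18a3 averaged 0.194 and 0.0982 CPM and were at 0 in 14 and 23 libraries, while the choline transporter gene Slc5a7 averaged 2.49 CPM with no library at 0. The 3 summed to 0.634 to 6.18 CPM. Tac1, Nwd2 and Slc5a7 did not pass with any of the 3 members in the limma fits described below. In those fits 1.29%, 9.62% and 0.0587% of all genes passed with Chrna3, Chrna5 and Chrnb4, so this says little about the 3 markers. Nwd2 had r = 0.41 with Chrna3 (limma adjusted p = 0.0869) and passed without library 48 (adjusted p = 0.0459). Of 3 interpeduncular markers, Otp averaged 0.383 CPM, while Pax7 and Irx2 averaged 3.98 and 9.42 CPM, and these are also transcription factor genes of wider midbrain use.

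All 3 genes were expressed at a low level in every library, and they differed in how far the level moved from rat to rat. CPM values are not corrected for transcript length, so the genes are not ranked against each other by level. Chrna5 ranged from 0.903 to 40.1 CPM with a median of 4.68 and a mean of 6.16 ± 5.86 (SD, n = 49). Chrna3 ranged from 0.289 to 9.64 CPM with a median of 2.56 and a mean of 2.67 ± 1.54 (SD, n = 49). Chrnb4 ranged from 0.549 to 2.85 CPM with a median of 1.30 and a mean of 1.40 ± 0.521 (SD, n = 49). The highest library thus exceeded the lowest 44.4-fold for Chrna5, 33.4-fold for Chrna3 and 5.19-fold for Chrnb4. Behind these levels stood few reads: the estimated counts had medians of 112, 47 and 26.02 for Chrna5, Chrna3 and Chrnb4, and the lowest library held 12.1, 3.0 and 9.01. The 33.4-fold range of Chrna3 therefore rests on a lowest library with 3.0 counts.

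Set against genes of similar mean level, Chrna5 was among the most variable genes of the tissue and Chrnb4 was not. On the scale of log2(CPM + 1) the SD across libraries was 0.82 for Chrna5, 0.54 for Chrna3 and 0.31 for Chrnb4. After removal of the trend of the SD on the mean, 99.0% of 18749 genes varied less than Chrna5, 94.2% less than Chrna3 and 34.4% less than Chrnb4. Counting error alone, computed as Poisson error of the estimated counts, gave 2.57% of the variance of Chrna5, 8.02% of that of Chrna3 and 28.4% of that of Chrnb4. The values of each gene formed 1 continuous distribution, in which the widest gap separated a single library from all others.

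The same library stood at the top for Chrna3 and Chrna5. Library 40 of series B, numbered by its place in the labels, had 40.1 CPM of Chrna5 and 9.64 CPM of Chrna3, and it ranked second for Chrnb4 with 2.31 CPM. It also led in Th, which encodes tyrosine hydroxylase, the rate-limiting step toward dopamine, with 1067 CPM against a median of 196 over the 49 libraries. Library 92 of series F ranked second for both genes, with 15.5 CPM of Chrna5 and 5.74 CPM of Chrna3, and had 2.21 CPM of Chrnb4. The top Chrnb4 value, 2.85 CPM, came from library 64 of series C, which had only 1.59 CPM of Chrna3 and 3.50 CPM of Chrna5.

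**Figure D1:**
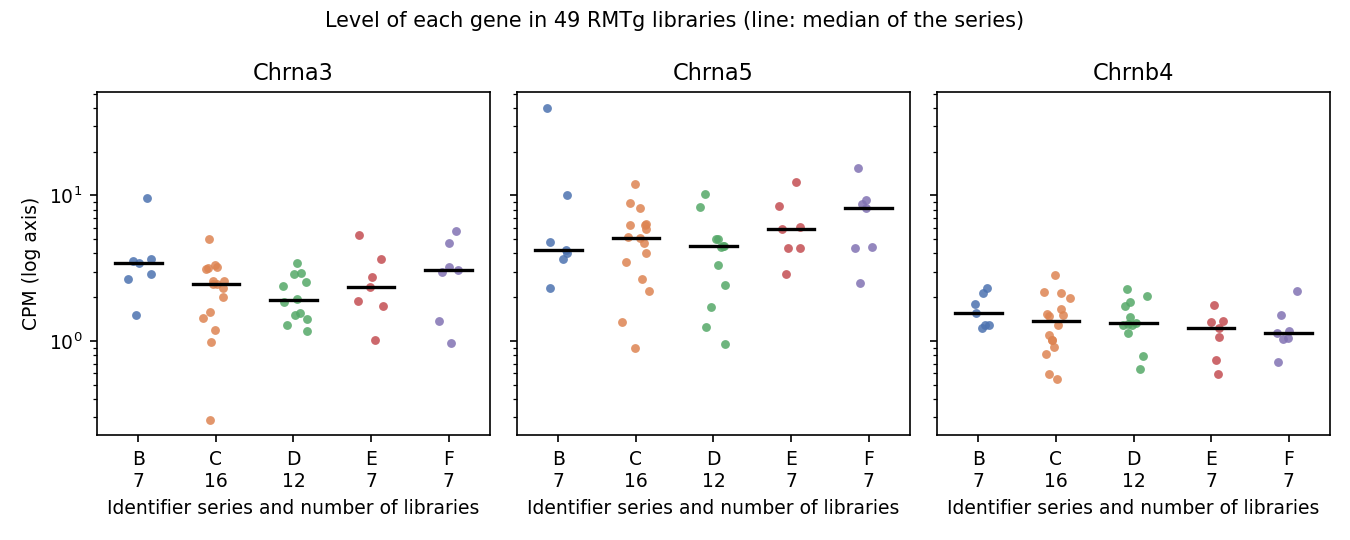
Levels of Chrna3, Chrna5 and Chrnb4 in CPM on a log axis, with 1 point per library and a line at the median of each identifier series. The points of Chrna5 spread from 0.903 to 40.1 CPM and those of Chrnb4 from 0.549 to 2.85 CPM, and the 5 series overlap for each gene.

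The identifier series did not differ detectably for any of the 3 genes. The means ran from 3.90 ± 2.63 CPM in series B to 2.08 ± 0.746 CPM in series D for Chrna3, from 9.88 ± 13.5 in series B to 4.32 ± 2.77 in series D for Chrna5, and from 1.66 ± 0.437 in series B to 1.16 ± 0.399 in series E for Chrnb4 (SD, n = 7, 12 and 7 libraries in series B, D and E). For Chrna3 and Chrna5 the order of the means was B, F, E, C and D, and for Chrnb4 it was B, D, C, F and E. Every neighbour in these orders overlapped the next within its spread. In limma's moderated F test over all genes the adjusted p was 0.501 for Chrna3, 0.623 for Chrna5 and 0.777 for Chrnb4, and 320 of 18749 genes (1.71%) passed an adjusted p of 0.05. The unadjusted p of the 3 genes was 0.13, 0.231 and 0.441. What the series stand for is not stated in the labels, and a p that misses the threshold does not show that the series are alike.

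Across rats Chrna3 and Chrna5 went up and down together, and Chrnb4 was not shown to follow either, although its gene ends just upstream of Chrna3. Pearson's r between Chrna3 and Chrna5 was 0.59 and Spearman's rho 0.50 over 49 libraries (permutation p = 3e-05 and 0.00032, adjusted over a family of 36 correlations to 0.00036 and 0.00384). For Chrna3 with Chrnb4 r was 0.22 and rho 0.20 (adjusted permutation p = 0.381 and 0.505), and for Chrna5 with Chrnb4 r was 0.21 and rho 0.10 (adjusted permutation p = 0.381 and 0.797). Within series B, C, D, E and F the r of Chrna3 with Chrna5 was 0.78, 0.50, 0.21, 0.30 and 0.90, so it was positive in all 5 but low in series D and E. For Chrna3 with Chrnb4 these values were 0.65, -0.03, 0.15, 0.39 and 0.48, and for Chrna5 with Chrnb4 they were 0.66, -0.15, 0.54, 0.45 and 0.35. After the 2 libraries most distant from the median were dropped, the r of Chrna3 with Chrna5 was 0.46 (adjusted permutation p = 0.0122), and r was 0.12 for Chrna3 with Chrnb4 and 0.18 for Chrna5 with Chrnb4. Without library 40 alone the r of Chrna3 with Chrna5 was 0.47. The 3 genes share the depth of each library.

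Chrna3 and Chrna5 both followed the markers of dopamine neurons. The dopaminergic score was the mean z-scored level of Th, Slc6a3, Nr4a2, Pitx3, Aldh1a1, Ret, Drd2, Foxa1 and En1. Chrna3 correlated with it at r = 0.83 and rho = 0.78, and Chrna5 at r = 0.72 and rho = 0.64. Each of these had a permutation p of 1e-05, the smallest that 100000 permutations can give, and an adjusted p of 0.00018. Chrnb4 had r = 0.15 and rho = 0.09 (adjusted permutation p = 0.544 and 0.797). The score accounted for 68.6% of the variance of Chrna3 on the log2 scale, 52.5% of that of Chrna5 and 2.27% of that of Chrnb4. In series B, C, D, E and F the r with the score was 0.89, 0.80, 0.56, 0.90 and 0.90 for Chrna3, and 0.90, 0.64, 0.53, 0.48 and 0.87 for Chrna5. For Chrnb4 it was 0.62, -0.14, 0.07, 0.27 and 0.50. Without the 2 libraries with the most extreme scores r was 0.77 for Chrna3, 0.63 for Chrna5 and 0.03 for Chrnb4. In tissue samples such as these, more dopamine neurons and more RNA per dopamine neuron cannot be told apart.

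**Figure D2:**
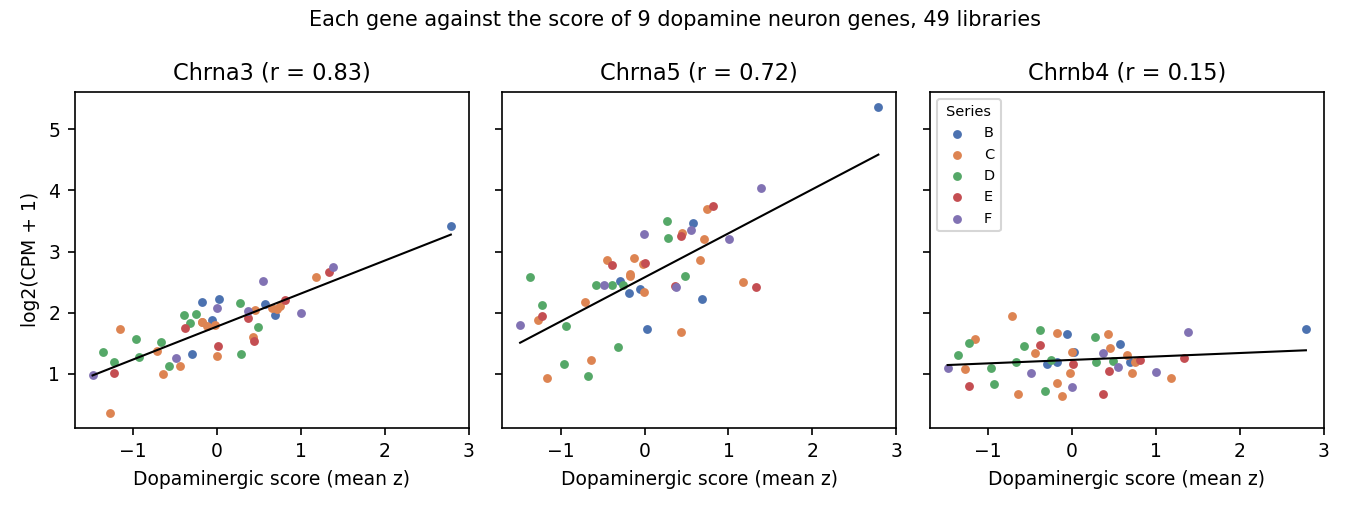
Level of each gene as log2(CPM + 1) against the dopaminergic score, with 1 point per library, colours for the identifier series and a least-squares line. Chrna3 and Chrna5 climb with the score (r = 0.83 and 0.72), the line of Chrnb4 is nearly flat (r = 0.15), and the rightmost point in each panel is library 40.

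The difference between neighbours in this relation was tested directly, over 3 pairs with p-values adjusted over them. Per SD of the score, Chrna5 rose by 0.60 ± 0.08 log2 units (SE), the slope of Chrnb4 was 0.05 ± 0.04, and the slopes differed by 0.55 ± 0.09 with a 95% interval of 0.38 to 0.72 (adjusted permutation p = 1.5e-05). Chrna3 rose by 0.45 ± 0.04 log2 units, and its difference from Chrnb4 was 0.40 ± 0.06 with an interval of 0.29 to 0.51 (adjusted permutation p = 1.5e-05). Chrna5 and Chrna3 differed by 0.15 ± 0.10 with an interval of -0.04 to 0.34 (permutation p = 0.123), so a steeper slope for Chrna5 was not shown and is not excluded by the interval. With each gene scaled to its own SD, an alternative chosen after seeing the data that takes the narrow spread of Chrnb4 into account, the differences from Chrnb4 were 0.57 SD for Chrna5 (adjusted permutation p = 0.00123) and 0.68 SD for Chrna3 (adjusted permutation p = 0.00012).

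Once the dopaminergic score was taken out of both genes, the r of Chrna3 with Chrna5 was -0.04, against 0.59 before. For Chrna3 with Chrnb4 the residual r was 0.17, and for Chrna5 with Chrnb4 it was 0.15, close to the values of 0.22 and 0.21 before. As a value from the same libraries this describes the overlap of the 3 relations and does not test a cause.

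Among the other 10 marker scores only 1 reached the threshold, and by rank alone. Chrna3 fell with the glycinergic score of Slc6a5, Glra1 and Slc6a9 at rho = -0.47 (adjusted permutation p = 0.00657), while Pearson's r was -0.39 (adjusted permutation p = 0.0619), or -0.45 without the 2 farthest libraries (adjusted permutation p = 0.0122). Within series B, C, D, E and F that r was -0.26, -0.30, -0.70, -0.31 and -0.42. With the score of 10 RMTg inhibitory genes r was -0.34 for Chrna3 (adjusted permutation p = 0.115), -0.07 for Chrna5 and -0.01 for Chrnb4. With astrocyte genes r was 0.33 for Chrna3, 0.30 for Chrna5 and -0.21 for Chrnb4, none of which passed. Scores of cholinergic, interpeduncular and medial habenula markers were not formed, since fewer than 3 of their genes passed the filter.

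**Figure D3:**
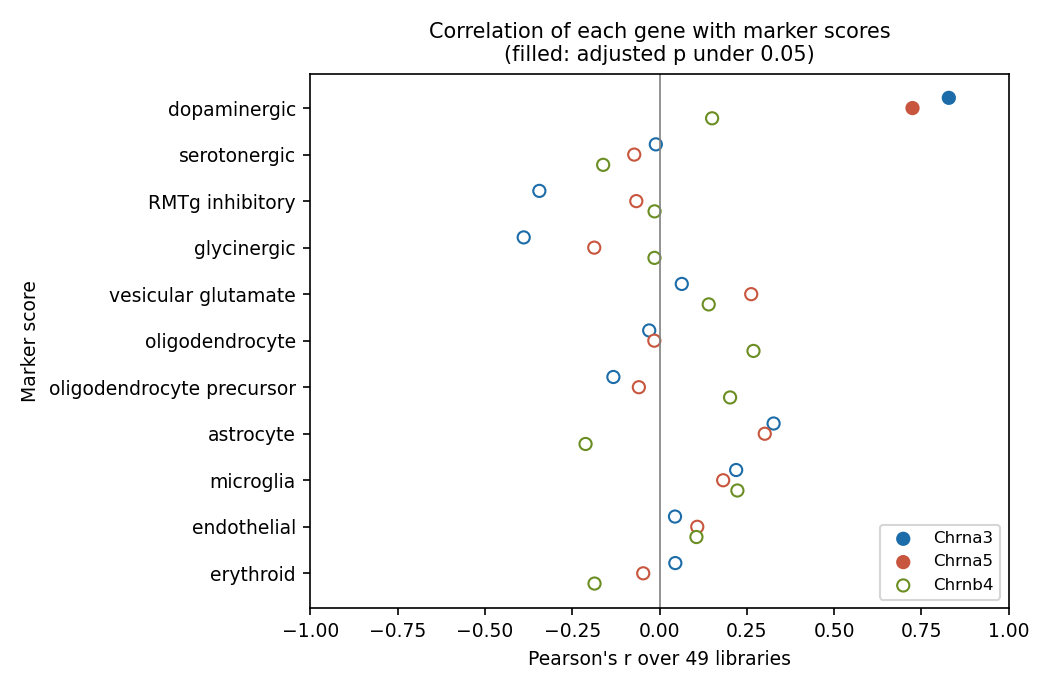
Pearson's r of each gene with 11 marker scores over 49 libraries, with filled points where the adjusted permutation p was under 0.05. The filled points are Chrna3 and Chrna5 with the dopaminergic score, at 0.83 and 0.72, and Chrnb4 has no filled point.

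A fit of every other gene on each member, with limma and Benjamini-Hochberg adjustment over 18748 genes, gave very different numbers of companions. A slope here is the change of a gene in log2(CPM + 1) per SD of the member, and a gene is said to rise or fall with a member when its adjusted p was under 0.05. With Chrna3, 173 genes rose (0.923%) and 68 fell (0.363%), 1.29% in all. With Chrna5, 1393 genes rose (7.43%) and 411 fell (2.19%), 9.62% in all. With Chrnb4, 9 genes rose (0.048%) and 2 fell (0.0107%), 0.0587% in all. At an unadjusted p under 0.05 the numbers were 3707, 5134 and 4238, so the number past the adjusted threshold moved far more between members than the number of small p-values. Upper quartile scaling turned the split for Chrna5 to 478 rising and 725 falling, and the count for Chrnb4 to 0. Leaving out 1 library at a time gave 101 to 269 rising genes for Chrna3 (lowest without library 40, highest without library 85), 304 to 1863 for Chrna5 and 0 to 593 for Chrnb4. The low value for Chrna5 came without library 45 of series C, the lowest in Chrna5 at 0.903 CPM, and leaving out library 71 or 92 gave 425 or 859. The high value for Chrnb4 came without library 40, so the list of genes that vary with Chrnb4 is not settled by these libraries.

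The genes named as most like or most opposite to a member are those with the highest or lowest r among genes that passed with the same sign of r in each of the 5 series, so that agreement across series is part of the choice. For Chrna3 they included several known from dopamine neurons. Slc39a4, which encodes a zinc importer, had the highest r at 0.81, with a slope of 0.58 ± 0.06 log2 units per SD (SE, limma adjusted p = 3.91e-09). It was followed by Ret, the receptor gene for GDNF family ligands, Cck, a peptide gene of many dopamine neurons, and Th, with r of 0.79, 0.79 and 0.78. The other 6 were the transcription factor genes Otx2, Foxp2 and Nr4a2, the neurotensin receptor gene Ntsr1, the ligand gene Wnt2 and the vesicle release gene Cadps2, with r between 0.75 and 0.78. At the other end stood Kcnc1, a potassium channel gene of fast-firing neurons, with r = -0.67 and a slope of -0.22 ± 0.04 (limma adjusted p = 3.99e-05). Syt2, the calcium sensor of fast transmitter release, had r = -0.64, the neurofilament gene Nefh and the potassium channel gene Kcna1 each had -0.58, and D430041D05Rikl had -0.56.

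The genes most like Chrna5 overlapped with these in part. The highest r was 0.75 for Ankrd34b, and the slope was 0.27 ± 0.04 per SD of Chrna5 (SE, limma adjusted p = 3.44e-06). Ddah1, an enzyme gene of the nitric oxide pathway, and Cadps2 each had r = 0.74, and Syt17, Gpr158 and Wnt2 had 0.72, 0.71 and 0.70. Aldh1a1, the retinaldehyde dehydrogenase gene of a subset of dopamine neurons, Nell1 and the dopamine transporter gene Slc6a3 had r of 0.69 to 0.70. Cadps2 and Wnt2 were among the 10 genes most like each of Chrna3 and Chrna5. Gpr158 rose with Chrna5 at 0.20 ± 0.03 and had a slope of 0.10 ± 0.04 on Chrna3 (limma adjusted p = 0.153). The genes that the same choice named as most opposite to Chrna5 were Tmem74bos, Filip1, Cd99l3, Zfp641 and Capn12, with r from -0.55 to -0.49, while the lowest r of any tested gene was -0.62, and the calls for Zfp641 and Capn12 were lost without library 45.

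Of the 9 genes that rose with Chrnb4, 6 had the same sign of r in every series. They were Maf1, a repressor of RNA polymerase III, Nol9, an RNA processing gene, and the centrosome gene Sdccag8. The others were Os9 of endoplasmic reticulum quality control, the kinesin gene Kif19b and the helicase gene Ighmbp2. The r of the 6 lay between 0.55 and 0.58, below the highest r of any tested gene, 0.64, and each had a limma adjusted p of 0.0485. Each of these calls was lost in 34 to 37 of the 49 fits that left out 1 library.

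Of the 9 dopaminergic genes, 8 rose with Chrna3, 8 with Chrna5 and 0 with Chrnb4, against 0.923%, 7.43% and 0.048% of all genes. With Chrnb4 1 of the 9 had an unadjusted p under 0.05, against 4238 of all 18748 genes. At so low a share past the threshold, 0 of 9 with Chrnb4 says little about these genes. The median slope of the 9 was 0.40 for Chrna3, 0.35 for Chrna5 and 0.05 log2 units per SD for Chrnb4, against -0.01, 0.01 and 0.03 over all genes. Th rose by 0.73 ± 0.08 per SD of Chrna3 (limma adjusted p = 6.48e-09) and by 0.61 ± 0.10 per SD of Chrna5 (adjusted p = 4.96e-05), and its slope on Chrnb4 was 0.20 ± 0.12 (adjusted p = 0.321). Slc6a3 rose by 0.76 ± 0.11 with Chrna3 and 0.75 ± 0.11 with Chrna5, with a slope of 0.28 ± 0.14 on Chrnb4 (adjusted p = 0.226). The exception was En1, a homeobox gene of both midbrain and hindbrain, with slopes of 0.10 and 0.08 on Chrna3 and Chrna5 (adjusted p = 0.0913 and 0.0975). Without library 40 the counts were again 8, 8 and 0. None of 10 RMTg inhibitory genes passed with any of the 3, against 1.29%, 9.62% and 0.0587% of all genes with Chrna3, Chrna5 and Chrnb4. An unadjusted p under 0.05 was found for 3, 2 and 3 of the 10, against 3707, 5134 and 4238 of all 18748 genes. These counts therefore say little about the RMTg inhibitory genes. Gad1, a gene of GABA synthesis, had a slope of 0.07 on Chrna5 (adjusted p = 0.172) and passed without library 40 (adjusted p = 0.0116).

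With the dopaminergic score as a covariate, few or no genes passed with Chrna3 and Chrna5. For Chrna3 0 of 18748 genes passed (1267 at an unadjusted p under 0.05, limma), for Chrna5 5 passed (0.0267%), and for Chrnb4 1338 passed (7.14%), of which 1095 rose and 243 fell. The 5 genes that passed with Chrna5 in this fit were Stk24, Lig4, Astn1, Gpr158 and Oxr1, named after their values were seen, and their slopes were 0.16, 0.48, 0.19, 0.21 and 0.22 per SD of Chrna5. The slope of Chrna5 on Chrna3 was -0.04 ± 0.14 with the covariate, against 0.48 ± 0.09 without it. Chrna3 and Chrna5 correlated with the score at r = 0.83 and 0.72, which makes slopes on them less precise in this fit. The SE of the slope of Chrnb4 on Chrna3, for instance, was 0.080 with the covariate and 0.045 without it. The low counts thus do not show that no gene varies with Chrna3 or Chrna5 beyond the score. Since single libraries moved the count of Chrnb4 between 0 and 593 without any covariate, the 1338 is given as a value only.

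Other subunits of the receptor family were read from the same fits, and whether the slopes of a subunit differ between members was not tested. Of 8 other neuronal subunit genes listed, 5 passed the filter, and Chrna2, Chrna9 and Chrna10, with means of 0.442, 0.00377 and 0.438 CPM, did not. Chrna6, whose alpha-6 subunit is restricted largely to catecholamine neurons and the visual system, ranged from 1.34 to 51.4 CPM with a median of 9.21. It rose by 0.65 ± 0.09 log2 units per SD of Chrna3 (limma adjusted p = 3.39e-06) and by 0.63 ± 0.09 per SD of Chrna5 (adjusted p = 1.52e-05), and its slope on Chrnb4 was 0.19 ± 0.12 (adjusted p = 0.346). Chrnb3, whose beta-3 subunit assembles with alpha-6, ranged from 2.23 to 22.7 CPM with a median of 8.07. It rose by 0.43 ± 0.06 per SD of Chrna3 (adjusted p = 3.76e-07) and by 0.32 ± 0.07 per SD of Chrna5 (adjusted p = 0.00296), with a slope of 0.08 ± 0.08 on Chrnb4 (adjusted p = 0.573).

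The subunits of the common brain receptors moved less. Chrna4, at 19.1 to 54.8 CPM with a median of 28.9, rose by 0.13 ± 0.03 per SD of Chrna5 (limma adjusted p = 0.0165), a call lost without library 40 (adjusted p = 0.112). Its slope on Chrna3 was 0.10 ± 0.04 (adjusted p = 0.133) and on Chrnb4 0.06 ± 0.04 (adjusted p = 0.301). Chrnb2, its usual partner, at 0.772 to 6.19 CPM with a median of 2.79, had slopes of 0.08, 0.11 and 0.04 on Chrna3, Chrna5 and Chrnb4, none of which passed. Chrna7, the subunit of the homomeric receptor, at 14.1 to 77.6 CPM with a median of 35.8, had slopes of 0.08, 0.12 and -0.12 (adjusted p = 0.37, 0.0993 and 0.13), so its value on Chrnb4 had the other sign. In all, 2 of 5 subunits rose with Chrna3, 3 of 5 with Chrna5 and 0 of 5 with Chrnb4 (1 at an unadjusted p under 0.05), against 0.923%, 7.43% and 0.048% of all genes, with median slopes of 0.10, 0.13 and 0.06. With so few genes past the threshold for Chrnb4, its 0 of 5 says little about the subunits. An unadjusted p under 0.05 with Chrnb4 was found for 4238 of all 18748 genes.

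Another list held proteins that help nicotinic receptors fold or that bind them at the membrane. Of 8 such genes, all past the filter, 1 rose with Chrna3, 2 rose with Chrna5 and 0 with Chrnb4, against 0.923%, 7.43% and 0.048% of all genes. With Chrnb4 0 of the 8 had an unadjusted p under 0.05, against 4238 of all 18748 genes. At the low share of genes past the threshold for Chrnb4, its 0 of 8 rising says little about this list. Tmem35a, the chaperone NACHO, rose by 0.20 ± 0.03 log2 units per SD of Chrna5 (limma adjusted p = 7.05e-05), and its slope on Chrna3 was 0.13 ± 0.04 (adjusted p = 0.0761) and on Chrnb4 -0.06 ± 0.04 (adjusted p = 0.359). Lypd6, a membrane-anchored modulator of the Ly6 family, rose by 0.11 ± 0.03 per SD of Chrna5 (adjusted p = 0.0319), a call lost without library 45 (adjusted p = 0.107) or library 86. Lypd1, of the same family, rose by 0.09 ± 0.03 per SD of Chrna3 (adjusted p = 0.0391), a call lost in 14 of the 49 fits that left out 1 library. Ric3, Lynx1, Lypd6b, Ly6h and Ly6e had slopes from -0.06 to 0.09 on the 3 members, and none passed.

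**Figure D4:**
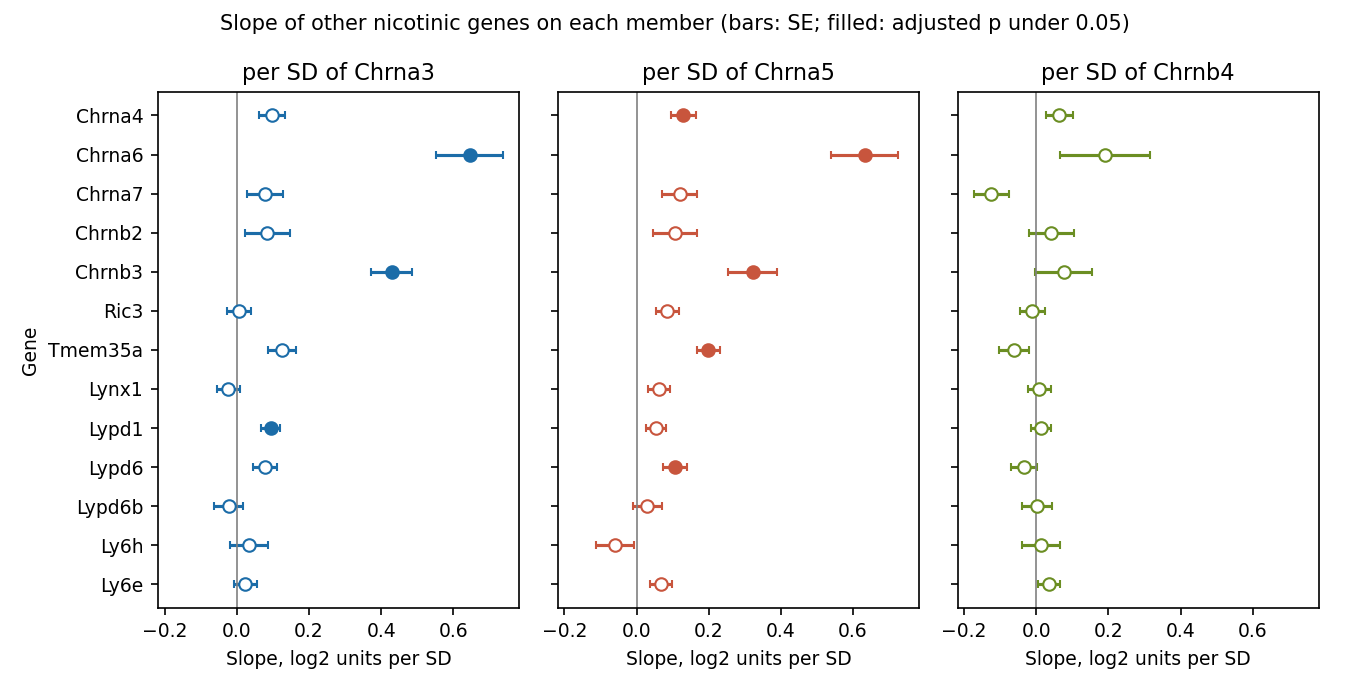
Slope of 5 other nicotinic subunit genes and 8 chaperone and modulator genes on each member, in log2 units per SD with SE bars, filled where the limma adjusted p was under 0.05. Chrna6 and Chrnb3 have filled points on Chrna3 (0.65 and 0.43) and on Chrna5 (0.63 and 0.32), and the panel of Chrnb4 has none.

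Sp1, Sp3 and Sox10, which encode transcription factors reported to act on promoters of the cluster, did not pass with any of the 3 members in limma. The shares of all genes that passed with Chrna3, Chrna5 and Chrnb4 were 1.29%, 9.62% and 0.0587%, so little can be read from this. Of 4 such factor genes past the filter, 2 had an unadjusted p under 0.05 on Chrnb4, against 4238 of all 18748 genes. Sp3 and Sox10 had slopes of -0.10 ± 0.04 and 0.10 ± 0.04 log2 units per SD of Chrnb4 (adjusted p = 0.143 and 0.125). The slopes of Sp1 were 0.02 on Chrna3, 0.04 on Chrna5 and -0.01 on Chrnb4. Pax7, an interpeduncular marker, had a slope of 0.14 ± 0.04 on Chrnb4 (adjusted p = 0.081) and of 0.13 ± 0.05 on Chrna5 (adjusted p = 0.0653). With the dopaminergic score as a covariate the slope of Pax7 on Chrnb4 was 0.14 ± 0.04 (adjusted p = 0.0448) and that of Irx2 was -0.08 ± 0.04 (adjusted p = 0.219), in a fit where 7.14% of all genes passed.

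The other genes of the region were read against the shares of all genes. Of 21 other genes within 500 kb of a member 16 passed the filter, among them Ireb2, Psma4 and Hykk, which stand beside the cluster in the human genome too. With Chrna3 0 of 16 passed in limma, against 1.29% of all genes, and 5 had an unadjusted p under 0.05, against 3707 of all 18748 genes. The highest r with Chrna3 was 0.44 for Ube2q2, 103 kb from the start of Chrna3 (adjusted p = 0.0756). With Chrna5 3 of 16 rose, against 7.43% of all genes: Idh3a by 0.11 ± 0.04, Skic8 by 0.08 ± 0.03 and Fbxo22 by 0.08 ± 0.03 log2 units per SD (adjusted p = 0.0398, 0.0475 and 0.0461). These 3 calls were lost in 11, 25 and 21 of the 49 fits that left out 1 library. Psma4, a proteasome gene that starts 29.4 kb from Chrna5, had r = 0.33 with Chrna5 (adjusted p = 0.123) and r = -0.38 with Chrnb4 (adjusted p = 0.122). With Chrnb4 0 of 16 passed, against 0.0587% of all genes, and 3 had an unadjusted p under 0.05, against 4238 of all 18748 genes. At the low shares for Chrna3 and Chrnb4, 0 of 16 says little about the region. The strand setting behind the estimated counts is not given in the sources used here, which bears on the ends where Chrna5 and Chrna3 face each other, and reads beyond an annotated end were not examined.

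**Figure D5:**
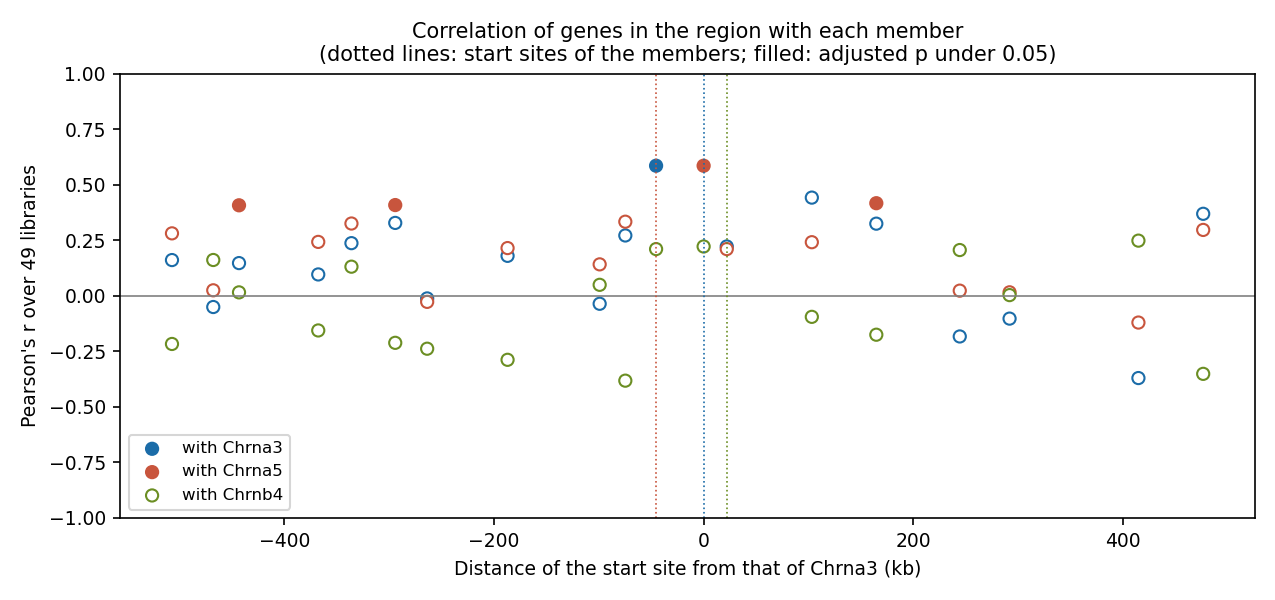
Pearson's r of each gene in the region with Chrna3, Chrna5 and Chrnb4 over 49 libraries, against the distance of its start from that of Chrna3 in kb. Chrna3 and Chrna5 stand out with r = 0.59, and the r of Chrnb4 with Chrna3, 22.1 kb away, is 0.22.

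Library measures were set beside the members. Depth, the number of genes above 0 and the share of the dominant features had r between -0.23 and 0.22 with the 3 genes, and none of these 9 correlations passed in a family of 12. The score of 12 respiratory chain genes had r = 0.01 with Chrna5 and an r closer to 0 with Chrna3. With Chrnb4 it had rho = -0.43 (adjusted permutation p = 0.0276) and r = -0.37 (adjusted permutation p = 0.0774), or r = -0.41 without the 2 farthest libraries (adjusted permutation p = 0.048), with r of 0.35, -0.57, -0.37, 0.07 and -0.45 in series B, C, D, E and F. Of the 12 genes 0 passed with Chrnb4 in limma, against 0.0587% of all genes. An unadjusted p under 0.05 was found for 9 of the 12, against 4238 of all 18748 genes. The median slope was -0.10 log2 units per SD, against 0.03 over all genes. Without library 40, Ndufa4, Uqcrb, Cox6c and Atp5f1e passed (adjusted p = 0.0308, 0.0448, 0.0408 and 0.0473), and Ndufa4 also passed without library 66 or 82. The part of the score in the values of Chrnb4 was not tested.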

How the data were processed

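The deposited table gave log2 values of estimated counts plus 1 for 38354 genes in 92 libraries; kallisto 0.48 is named per the submitters' processing notes, and the genome build and strand setting are not given in the sources used here. Its positions equal a gene end of RefSeq GRCr8 for 38272 of 38278 matched symbols. Of 93 labelled samples 1 has no column in the table and was not analysed here, and the labels of a pair of libraries record an identifier corrected after genotyping.

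The deposited log2 values were turned back to counts, the 49 libraries free of dominant features were kept, and CPM and log2(CPM + 1) were computed. Genes with a log2(CPM + 1) of at least 1 in at least 20% of the 49 libraries were tested (18749 genes). Identifiers that differ by over 50000 start a new series. Slopes on each z-scored member and differences between series came from limma 3.58.1 in R 4.3.3 with a mean trend, and correlations from 100000 two-sided permutations in Python 3.11.15. A planned test against an interpeduncular score could not be run, since under 3 of its genes passed the filter. Named genes are the members, the listed genes, genes within 500 kb, and for each member the 10 highest and 5 lowest r among genes that passed with 1 sign in every series. A few genes that the rule or the lists hold are not reported here. The members and lists were chosen with earlier results of these data known. Procedures were tested on simulated data. Nothing says that libraries of 1 series were handled together, and each library is taken as 1 rat. Alternatives changed the pseudocount, filter, scaling, covariates and libraries. Depth ran from 9.55 to 50.2 M estimated counts, and Poisson error at the median of 26.02 counts limits Chrnb4 most.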

Additional observations from a re-analysis of the deposited data

Results flagged for a closer look

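Library 40 stood far above the other 6 libraries of series B for 2 of the 3 genes. It had 40.1 CPM of Chrna5, with 10.1 CPM in the next library, a gap of 0.794 of the range in that series, and 9.64 CPM of Chrna3, with 3.67 CPM in the next library, a gap of 0.735 of the range. The critical share for 7 samples is 0.568, and its nominal rate by chance is about 1 in 20 of the 9 groups of 4 to 10 libraries examined. That rate assumes normally distributed values. The shares were computed on CPM only, and whether the flags hold on the log2 scale was not tested. As log2(CPM + 1), library 40 had 5.36 for Chrna5 and 3.41 for Chrna3, with 3.47 and 2.22 in the next libraries of the series. Its Th level of 1067 CPM was also the highest of the 49 libraries, and r between Chrna3 and Chrna5 was 0.47 over the 48 libraries without it.

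The libraries set aside for dominant features also held counts of the 3 genes. Of 32 libraries dominated by LOC120093067 and Zfp532, an estimated count above 3 was present in 10 for Chrna3, in 28 for Chrna5 and in 20 for Chrnb4. These libraries had median counts of 1.5, 9.18 and 6.02 for Chrna3, Chrna5 and Chrnb4. Of 11 libraries dominated by Nif3l1 the count was above 3 in 1 for Chrna5, barely so, and in 5 for Chrnb4, where it reached 27.8, and in none for Chrna3. No control libraries exist for these values.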

How the results depend on the processing

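The correlations among members and with the dopaminergic score, the differences between members and the test between series kept their direction and their side of the threshold in each alternative that pooled the series (a sign change between 2 values that both missed the threshold was not counted). Within single series no adjusted p was computed. There the 95% interval of r for Chrna3 with Chrna5 spanned both signs in series D (-0.41 to 0.70) and E (-0.59 to 0.86). For Chrna5 with the score it did so in series D (-0.06 to 0.85) and E (-0.42 to 0.91). For Chrna3 with the score it did so in series D (-0.02 to 0.86). These 3 relations had positive intervals in the remaining series. The numbers of companion genes moved. Rising and falling genes of Chrna3, 173 and 68, became 108 and 11 with Xist and Ddx3y as covariates, 261 and 176 with the respiratory chain score (added after seeing the data), 0 and 0 with the dopaminergic score, 94 and 21 without the 2 farthest libraries, and 10196 and 5920 in 81 libraries scaled without the dominant features. Falling genes alone moved to 39 with a pseudocount of 0.1, 42 without a filter, 43 with series and 41 with log10 depth as covariate. Of Chrna5, 1393 and 411 became 478 and 725 with upper quartile scaling, 336 and 34 with series, 5 and 0 with the dopaminergic score, 517 and 50 without the 2 farthest libraries, and 7733 and 2601 in 81 libraries. Falling genes alone moved to 163 without a filter, 154 with log10 depth and 150 with Xist and Ddx3y. Of Chrnb4, 9 and 2 became 1 and 0 with a pseudocount of 0.1, without a filter and without the dominant features in the totals, 0 and 0 with upper quartile scaling, series, log10 depth or the respiratory chain score, 605 and 141 with Xist and Ddx3y, 1095 and 243 with the dopaminergic score, 4 and 0 without the 2 farthest libraries, and 1728 and 653 in 81 libraries. Leaving out 1 library at a time (added after seeing the data) gave 101 to 269 rising and 35 to 352 falling genes for Chrna3, 304 to 1863 and 31 to 760 for Chrna5, and 0 to 593 and 0 to 215 for Chrnb4. The falling count of Chrna3 moved by over 1.5 times without library 35, 40, 45, 47, 48, 54, 62, 66, 70, 84, 85 or 93, that of Chrna5 without 45, 51, 57, 65, 66, 69, 70, 71, 81, 86, 90, 91 or 92, and the rising and falling counts of Chrnb4 without 46 and 43 of the 49 libraries. Calls gained among the named genes by leaving out 1 library, beside those given with Gad1 and the respiratory chain, were En1 on Chrna3 and on Chrna5 (library 71, limma adjusted p = 0.0371 and 0.0167), Ube2q2 on Chrna3 (library 40, 0.04), Tmem35a on Chrna3 (library 85, 0.0482), Nwd2 and Zfp641 on Chrna3 (libraries 48 and 72, 0.0459 and 0.0468), Nefh on Chrna5 (library 62, 0.0416), Chrna7 and Gata2 on Chrna5 (libraries 67 and 77, 0.0451 and 0.0423), Ric3 on Chrna5 (library 48 or 65, lowest 0.03), Pax7 on Chrna5 (library 43, 63 or 65, lowest 0.0435) and Psma4 and Kcna1 on Chrnb4 (library 40, 0.0321 and 0.0481). The slope of Chrna5 on Chrna3 was 0.34 without the 2 farthest libraries (limma adjusted p = 0.065, range over the alternatives 1.04e-08 to 0.97).

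With the dopaminergic score as covariate the slopes of Chrna5 on Chrna3 (-0.040), Chrna3 on Chrna5 (-0.017) and Chrnb3 on Chrna5 (-0.042) changed sign. In 81 libraries, which add the 32 shallow ones, sign changed for 18 slopes on Chrna3: Foxp2 -0.33, Cadps2 -0.38, D430041D05Rikl 0.22, Kcna1 0.10, Nefh 0.18, Kcnc1 0.077, Chrna7 -0.64, Chrnb2 -0.20, Chrnb3 -0.063, Tmem35a -0.24, Lynx1 0.52, Lypd6b 0.37, Sp1 -0.25, Sp3 -0.58, Sox10 0.50, Cib2 0.81, Crabp1 0.69 and Ireb2 -0.53. On Chrna5 it changed for Cadps2 -0.11, Ly6h 0.30, Sp3 -0.27, Crabp1 0.32 and Ireb2 -0.25, and on Chrnb4 for Maf1 -0.084, Os9 -0.0022, Kif19b -0.089 and Ighmbp2 -0.019. The cause was not tested. Totals without the dominant features shifted the median of all genes by 0.04 log2 units and upper quartile scaling by -0.01. No paired analysis was possible because all libraries form 1 group. Depth limits Chrnb4 most, with a median of 26.02 counts.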
